A study of Homo sapiens with 9 samples.

Results

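The genes described here are the switches of the G1 phase of the cell cycle: the D-type cyclins CCND1, CCND2 and CCND3, the E-type cyclins CCNE1 and CCNE2, the cyclin-dependent kinases CDK2, CDK4 and CDK6, and the kinase inhibitors CDKN1A (p21) and CDKN1B (p27). They were taken by symbol from the series' count table, with the rows of a symbol summed. All 10 were found, each on a single row, among 52402 symbols. All 10 also passed the filter on low counts, which left 14637 genes for testing. RNA was sequenced from HaCaT cells, an immortalised human keratinocyte line, grown in DMEM with fetal bovine serum. Control cells had medium alone, and the other groups had medium with fragments of polystyrene plastic (fragmented polystyrene, fPS) at 25 µg/ml (fPS 25) or 100 µg/ml (fPS 100), all for 24 h. Each of the 3 groups had 3 libraries. Whether these came from separate cultures is not said in the labels, and the spread behind each p-value may thus be technical. The series is about this plastic and skin inflammation.

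In G1, growth signals raise cyclin D, which activates CDK4 and CDK6. These kinases begin to phosphorylate the retinoblastoma protein, E2F transcription factors are released, and cyclin E with CDK2 completes the step into S phase. The inhibitors p21 and p27 bind cyclin-CDK complexes: they block CDK2, and they also help cyclin D to assemble with its kinase. In the epidermis this switch separates dividing basal keratinocytes from those that leave the cycle and differentiate.

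Total counts ran from 16.4M to 29.3M per library, and the members had 50 to 16300 counts per library. The 9 keratinocyte markers were all measured, with a summed level of 5653 to 5859 CPM (counts scaled to a common library total) in control, 4785 to 4987 in fPS 25 and 5250 to 8472 in fPS 100. Markers of fibroblasts, melanocytes, immune cells and endothelial cells summed to at most 15.1, 4.53, 2.64 and 2.01 CPM in any library, with LUM, KDR and TEK at 0 throughout. Immune markers were at 2.505 to 2.64 CPM in control, 0.349 to 1.16 in fPS 25 and 0.679 to 1.40 in fPS 100. On the second principal component of all genes, control libraries lay at 1.18 to 30.7 and fPS 25 libraries at −21.3 to −9.70. Replicate 3 of fPS 100 stood apart from its group there, at 35.2 against −19.0 and −9.91. Protein-coding transcripts of mitochondrial DNA made up 2.09% of its counts other than nuclear ribosomal RNA, against 5.34% and 4.62% in the other fPS 100 libraries and 2.32% to 3.53% in control. Nuclear ribosomal RNA took 6.06% to 8.48% of counts in fPS 100 and 0% in the other groups. With the ribosomal RNA genes removed the same numbers of members were called, 7 and 0 against control and 8 between the concentrations, with CDKN1A at 1.44 and CDK2 at −0.97 in fPS 100 against control. Removing these genes mainly changes the scaling of the libraries. Ribosomal RNA was counted in every fPS 100 library and in no other, so whatever brought it cannot be told apart from the concentration. The part of the mitochondrial and immune marker differences in the results was not tested. Where leaving out replicate 3 ended a call of a member or moved a difference of a member or ratio by over 1.5 times, the value without it is given. Values of all other named genes come from the fit of all 9 libraries alone. How far they depend on replicate 3 was not tested.

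In fPS 100 against control, 7 of the 10 genes changed in edgeR's quasi-likelihood test with Benjamini-Hochberg adjustment over all genes (called at an adjusted p under 0.05). CDKN1A, CCNE1, CCND1 and CCND2 rose, CDK2, CCNE2 and CDK4 fell, and CCND3, CDK6 and CDKN1B were not called. Of all genes tested 30.0% were called, 15.2% as higher and 14.8% as lower. The libraries of both groups did not overlap for 8 members, against 41.4% of all genes. The median log2 fold change of the 10 was −0.0062, beside 0.0071 over all genes, since rises and falls stood side by side. In fPS 25 against control no member was called, where 5.23% of all genes were, 2.99% higher and 2.24% lower. The libraries did not overlap for 3 members (CDK2 lower, CDKN1A and CDKN1B higher), against 33.5% of all genes. One member, CDK2, had an unadjusted p under 0.05 there (0.0202), as did 20.7% of all genes, and DESeq2 also called none. In fPS 100 against fPS 25, 8 members were called, 4 higher and 4 lower, against 13.7% of all genes, 6.31% higher and 7.43% lower, and 8 did not overlap, against 35.1% of all genes. A test for any difference among the 3 groups called 8 members, all but CCND3 and CDK6, against 27.7% of all genes. In bulk RNA, fewer cells in a cycle phase and less RNA per cell cannot be told apart.

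**Figure D1:**
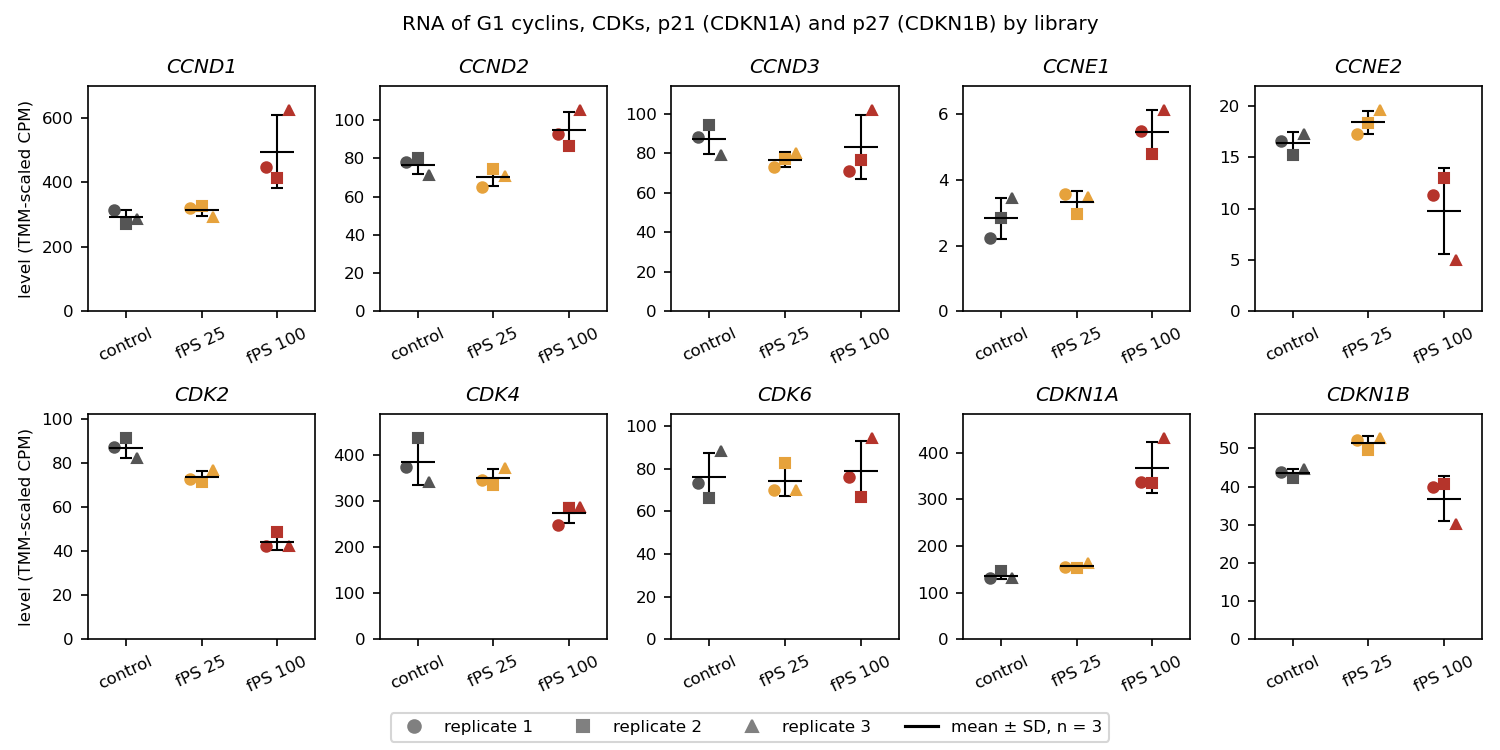
Level of each gene in every library, in TMM-scaled CPM on a linear axis from 0, with the mean and SD of 3 libraries per group in black. CDKN1A, CCND1 and CCNE1 are highest in fPS 100 and CDK2, CDK4 and CCNE2 lowest there. Replicate 3 of fPS 100 (triangle) is the highest of all libraries for CCND1, at 623 CPM, and the lowest for CCNE2, at 5.01 CPM. It is also the highest for CCND2, CCND3, CCNE1, CDK6 and CDKN1A and the lowest for CDKN1B and, by little, CDK2.

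CCND1, cyclin D1, is the D cyclin most tightly tied to growth signals. Its level was 314, 272 and 288 CPM in the 3 control libraries, 319, 326 and 294 CPM in fPS 25, and 447, 413 and 623 CPM in fPS 100. All fPS 100 libraries lay above all others, and fPS 25 overlapped control. The log2 fold change was 0.76 ± 0.14 (SE, n = 3 per group) in fPS 100 against control (adjusted p = 0.00212) and 0.66 ± 0.14 against fPS 25 (adjusted p = 0.00976), while fPS 25 against control gave 0.10 ± 0.14. Without fPS 100 replicate 3 the rise over control was 0.56 (adjusted p = 0.000633). On GRCh38.p14 the gene lies on chromosome 11 from 69641156 to 69654474, and 10.3% of its annotated exonic bases overlap exons of LTO1 on the opposite strand. Whether counting used strand is not given in the sources used here, so reads from such overlaps cannot be assigned. LTO1, listed as ORAOV1 in the table, went the other way, at −0.47 ± 0.14 (adjusted p = 0.0283).

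CCND2, cyclin D2, had 77.8, 80.3 and 71.1 CPM in control, 65.1, 74.4 and 70.9 CPM in fPS 25, and 92.8, 86.4 and 105 CPM in fPS 100. The fPS 100 libraries again lay above all others. The rise over control was small, at 0.31 ± 0.10 (adjusted p = 0.0323), and that over fPS 25 was 0.43 ± 0.10 (adjusted p = 0.0132). The call against control ended without control replicate 1 (adjusted p = 0.0784) or 3 (0.0897), fPS 25 replicate 3 (0.0506), or fPS 100 replicate 1 (0.0562) or 3 (0.0537), and with only the compared groups (0.0755) or the replicate number as a block (0.0747). That against fPS 25 ended without fPS 25 replicate 1 (0.0766). AC008012.1, a gene on the same strand with no row in the table, overlaps 13.8% of the exonic bases of CCND2. CCND3, cyclin D3, had 79.2 to 94.4 CPM in control, 73.0 to 80.3 in fPS 25 and 71.0 to 102 in fPS 100, and its groups overlapped. Its differences were −0.07 ± 0.13 for fPS 100 and −0.18 ± 0.13 for fPS 25 against control, neither called. The first of these was −0.24 (adjusted p = 0.0576) without fPS 100 replicate 3.

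CDK4 and CDK6 are the kinases that D cyclins activate. CDK4 had 375, 438 and 342 CPM in control, 347, 336 and 372 CPM in fPS 25, and 249, 286 and 287 CPM in fPS 100. The fPS 100 libraries lay below all others, and fPS 25 overlapped control. The fall was −0.49 ± 0.11 against control (adjusted p = 0.00563), with a call in each of 21 alternative analyses, and −0.36 ± 0.11 against fPS 25 (adjusted p = 0.0477). The latter call ended with RLE scaling (0.0521) and the replicate block (0.0931). It also ended without control replicate 1 (0.0805), fPS 25 replicate 1, 2 or 3 (0.127, 0.105 and 0.163), or fPS 100 replicate 1 (0.133) or 2 (0.0783). CDK4 lies on chromosome 12 from 57747727 to 57752310, tail to tail with TSPAN31, a tetraspanin gene. Exons of TSPAN31 on the opposite strand cover 43.2% of the annotated exonic bases of CDK4. TSPAN31 had far fewer counts, 225 to 298 per library in control and 449 to 495 in fPS 100, and it rose by 0.77 ± 0.13 (adjusted p = 0.00128) where CDK4 fell. CDK6 had 66.4 to 88.2 CPM in control, 70.0 to 82.7 in fPS 25 and 66.8 to 94.4 in fPS 100. Its groups overlapped in all comparisons, with log2 fold changes of 0.06 ± 0.14 for fPS 100 and −0.03 ± 0.14 for fPS 25 against control.

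The E cyclins moved in opposite directions in fPS 100. CCNE1, cyclin E1, had 2.22, 2.83 and 3.46 CPM in control, 3.56, 2.97 and 3.47 CPM in fPS 25, and 5.49, 4.78 and 6.12 CPM in fPS 100. These values rest on few reads, 50 to 160 counts per library. All fPS 100 libraries lay above all others, and fPS 25 overlapped control. The rise was 0.94 ± 0.19 against control (adjusted p = 0.00344), also called in all 21 alternatives, and 0.72 ± 0.19 against fPS 25 (adjusted p = 0.0274). On the authors' log2 values, where 1 is added before the log, the rises were smaller, at 0.61 and 0.46. The call against fPS 25 ended without fPS 25 replicate 1 (0.0743), 2 (0.128) or 3 (0.0796), or fPS 100 replicate 1 (0.0589).

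CCNE2, cyclin E2, had 16.6, 15.2 and 17.3 CPM in control, 17.3, 18.3 and 19.6 CPM in fPS 25, and 11.3, 12.9 and 5.01 CPM in fPS 100. The fPS 100 libraries lay below all others, and replicate 3 lay lowest, at 131 counts against 280 and 311. The fall was −0.75 ± 0.26 against control (adjusted p = 0.0474) and −0.92 ± 0.26 against fPS 25 (adjusted p = 0.0364). Without fPS 100 replicate 3 the values were −0.43 (adjusted p = 0.0110) and −0.60 (0.00394), smaller but called. The call against control ended without control replicate 1 (0.109), 2 (0.0824) or 3 (0.101), or fPS 25 replicate 1 (0.0684), 2 (0.0694) or 3 (0.0650). It also ended with upper-quartile scaling (0.0671), only the compared groups (0.0976) and the replicate block (0.0595). The call against fPS 25 ended without control replicate 1 (0.0614) or fPS 25 replicate 1 (0.0845), 2 (0.104) or 3 (0.108), with only the compared groups (0.0691) and with the block (0.0544). Exons of INTS8 on the opposite strand cover 37.0% of the exonic bases of CCNE2. INTS8, an Integrator complex subunit, had 1099 to 1354 counts in control and 1355 to 1484 in fPS 100, more than CCNE2 itself, and was at 0.21 ± 0.11 (adjusted p = 0.154).

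CDK2, the kinase that E cyclins activate, had 87.3, 91.3 and 82.0 CPM in control, 72.7, 71.5 and 76.8 CPM in fPS 25, and 42.2, 48.6 and 42.1 CPM in fPS 100. The 3 groups did not overlap at any step, and the level stepped down from control to fPS 25 to fPS 100. The fall was −0.97 ± 0.09 against control (adjusted p = 2.77e-05), to 0.510 of the control level, and −0.73 ± 0.09 against fPS 25 (adjusted p = 0.000324). Both were called in all 21 alternatives. The step from control to fPS 25 was −0.24 ± 0.09 and was not called (adjusted p = 0.152), at 0.0670 to 0.458 over the alternatives. CDK2 lies on chromosome 12 from 55966830 to 55972789, and PMEL, a melanocyte gene on the opposite strand, covers 2.29% of its exonic bases, with 22 to 56 counts in any library. AC025162.1, an antisense gene with no row in the table, covers 14.5%.

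CDKN1A encodes p21, a general inhibitor of cyclin-CDK complexes. It had 131, 146 and 132 CPM in control, 154, 153 and 163 CPM in fPS 25, and 338, 335 and 431 CPM in fPS 100. The 3 groups did not overlap. Of the 10 genes it changed most, by 1.43 ± 0.11 against control (adjusted p = 1.03e-05), a 2.70-fold rise, and by 1.23 ± 0.11 against fPS 25 (adjusted p = 5.45e-05). By p-value it ranked 51 among 14637 genes in the comparison with control. The rise was called in all 21 alternatives, at 1.30 to 1.499, with the lowest value without fPS 100 replicate 3. In fPS 25 the difference from control was 0.20 ± 0.11 (adjusted p = 0.332). CDKN1B encodes p27, the inhibitor linked to contact inhibition and withdrawal of growth factors. It had 43.9, 42.2 and 44.5 CPM in control, 52.1, 49.5 and 52.8 CPM in fPS 25, and 39.9, 40.6 and 30.2 CPM in fPS 100. Here fPS 25 lay above control and fPS 100 below it, with no overlap in either case. Neither difference was called against control, at 0.24 ± 0.11 (adjusted p = 0.248) for fPS 25 and −0.24 ± 0.11 (adjusted p = 0.127) for fPS 100. The latter was −0.11 (adjusted p = 0.257) without fPS 100 replicate 3. Between the concentrations p27 fell by 0.48 ± 0.11 (adjusted p = 0.0151). That call ended without fPS 25 replicate 1 (0.0625) or 3 (0.0586), and fPS 25 against control was called without fPS 100 replicate 3 (0.24, adjusted p = 0.0369).

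**Figure D2:**
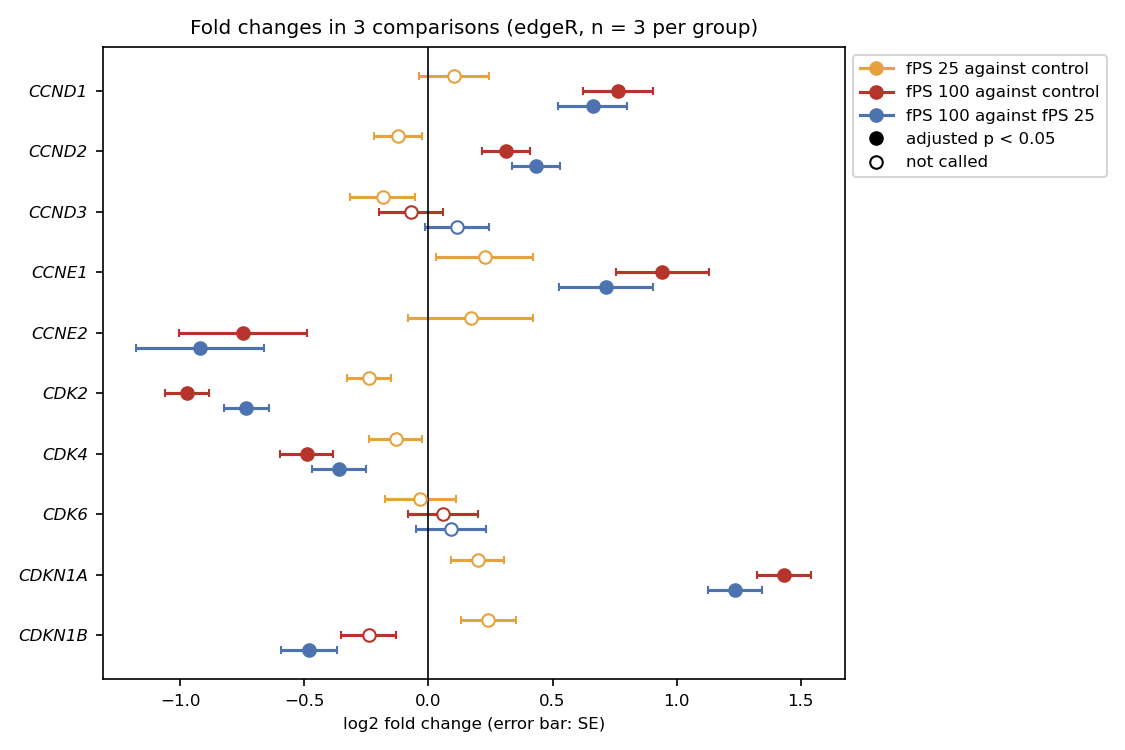
Log2 fold change of each gene in 3 comparisons, with its SE as a bar; filled points have an adjusted p under 0.05. CDKN1A lies farthest up at 1.43 and CDK2 farthest down at −0.97 in fPS 100 against control, and no point of fPS 25 against control is filled.

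Promoter sequence is shown for CDKN1A and CCNE1, the genes with the largest rises against control, 250 bases before a RefSeq transcript start on GRCh38.p14 (RefSeq sequence, 5′ to 3′, plus strand). The CCNE1 window precedes the start of the gene. The CDKN1A window precedes a start that lies inside the gene, which RefSeq places from 36676463 to 36687332, so other transcripts begin upstream of it. Capitals mark GC boxes, the letters GGGCGG or CCGCCC on the other strand, which the SP1 family binds.
CDKN1A, chr6:36678464-36678713: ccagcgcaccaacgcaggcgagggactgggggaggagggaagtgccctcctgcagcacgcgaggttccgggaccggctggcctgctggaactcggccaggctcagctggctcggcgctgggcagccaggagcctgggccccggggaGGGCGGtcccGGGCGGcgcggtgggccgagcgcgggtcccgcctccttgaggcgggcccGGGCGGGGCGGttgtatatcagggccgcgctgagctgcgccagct
CCNE1, chr19:29811741-29811990: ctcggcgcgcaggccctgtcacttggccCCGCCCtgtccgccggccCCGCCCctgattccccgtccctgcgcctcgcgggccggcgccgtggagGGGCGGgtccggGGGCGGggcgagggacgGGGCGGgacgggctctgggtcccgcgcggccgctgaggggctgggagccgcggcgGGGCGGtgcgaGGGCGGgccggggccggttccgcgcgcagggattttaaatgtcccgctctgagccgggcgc

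The CDKN1A window held 4 GC boxes, of which the last pair share a base, and the CCNE1 window held 7. Their GC content was 76.4% and 81.2%. At least 1 GC box was present in 42.6% of all 35116 windows of this length. How many boxes such windows hold was not computed, so the numbers per window have no background. Other motifs were searched too, and those not named are not reported here. Promoter windows were at hand for 6 of the 10 members. Among the others, that of CDK4, which fell, held 3 GC boxes and 3 E-boxes (CACGTG, the site of the MYC family, in 6.34% of windows), and that of CDKN1B held 1 GC box. Genes that were not called had them too: the windows of 3 CCND3 starts held 5, 2 and 0 GC boxes, and those of 2 CDK6 starts held 3 and 0. The E2F letters TTTNNCGC, searched on both strands and present in 5.92% of windows, had no match in any member's window, which says only that these letters are not there. SP1 itself fell in fPS 100, by 0.80 ± 0.11 (adjusted p = 0.000431). It was also lower in fPS 25, at −0.47 ± 0.11 (adjusted p = 0.0385), where no member was called. SP3, of the same family, was not called, at −0.20 ± 0.12 (adjusted p = 0.24) in fPS 100 and 0.0084 ± 0.12 in fPS 25. A link of either to these promoters was not tested.

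The balance within families was read from ratios inside each library, which need no library size. There were 3 such measures in 3 comparisons, 9 exact permutation tests in all, 2-sided. With 3 libraries against 3 the smallest p is 0.10, and 0.129 after adjustment over the 9, so no test can pass. The count ratio of CCNE1 to CCNE2 was 0.134, 0.187 and 0.200 in control, 0.206, 0.163 and 0.177 in fPS 25, and 0.486, 0.370 and 1.22 in fPS 100. All fPS 100 libraries lay above all others, and CCNE1 had more counts than CCNE2 in fPS 100 replicate 3 alone. The mean log2 ratio was 1.82 higher in fPS 100 than in control (exact permutation p = 0.10), a 3.53-fold shift, and 1.31 higher without that replicate. In fPS 25 it differed from control by 0.0825 (exact permutation p = 0.80).

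The count ratio of p21 to p27 RNA was 2.99, 3.46 and 2.96 in control, 2.95, 3.08 and 3.09 in fPS 25, and 8.47, 8.25 and 14.3 in fPS 100. The control and fPS 25 libraries overlapped, and all fPS 100 libraries lay above them. The mean log2 ratio was 1.68 higher in fPS 100 than in control (exact permutation p = 0.10), a 3.19-fold shift, and −0.0416 in fPS 25 (exact permutation p = 0.80). For fPS 25 this came with p21 and p27 both higher than control in every library.

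Levels of different genes were compared on the authors' length-scaled values, taken out of their log2 form. CCND1 held 55.9%, 50.8% and 56.5% of the summed level of the 3 D cyclins in control, 61.0%, 59.8% and 56.8% in fPS 25, and 67.4%, 64.4% and 67.9% in fPS 100. Every fPS 25 library lay above control and every fPS 100 library above fPS 25. The mean share rose by 12.2 percentage points in fPS 100 and by 4.77 in fPS 25 (exact permutation p = 0.10 for each, the smallest possible). The second value was 2.97 without control replicate 2. The share of CCND3 was 36.3% ± 2.71 in control, 32.2% ± 1.85 in fPS 25 and 25.0% ± 1.65 in fPS 100 (SD, n = 3). CCND2 held 9.27% ± 0.428, 8.61% ± 0.460 and 8.42% ± 0.859. The shares make up a whole, so a higher share of CCND1 lowers the others by arithmetic. The CCND3 level itself was 37.98 ± 3.16 in control, 34.15 ± 1.63 in fPS 25 and 36.78 ± 6.64 in fPS 100. The summed D cyclin level was 100.2 to 111 in control, 104 to 110 in fPS 25 and 129 to 180 in fPS 100.

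**Figure D3:**
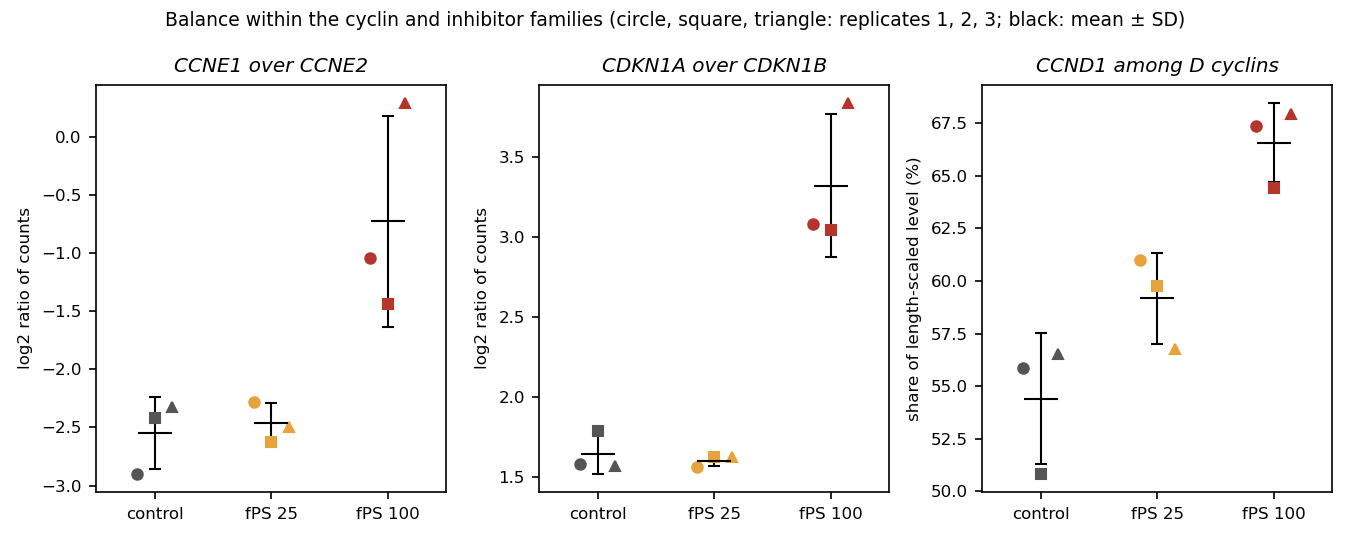
Log2 ratio of counts of CCNE1 to CCNE2 and of CDKN1A to CDKN1B, and share of CCND1 in the summed length-scaled level of the D cyclins in percent, in every library with the mean and SD of each group (axes do not start at 0). Both ratios overlap between control and fPS 25 and lie higher in fPS 100, while the share of CCND1 steps up through 54.4%, 59.2% and 66.6%.

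On the same length-scaled values, the order of the members in control was CDK4 (168 ± 18.7, SD, n = 3), CCND1 (56.9 ± 4.79), CDKN1A (54.7 ± 2.48), CCND3 (37.98 ± 3.16), CDK2 (32.7 ± 1.35), CDKN1B (14.8 ± 0.602), CCND2 (9.69 ± 0.521), CDK6 (5.36 ± 0.827), CCNE2 (5.15 ± 0.409) and CCNE1 (1.32 ± 0.287). Neighbours overlapped between libraries only for CCND1 with CDKN1A and for CDK6 with CCNE2. CDK4 thus stood far above CDK6, and CCND1 and CCND3 far above both E cyclins, while CCND2 lay less far above CCNE2. In fPS 25 CDK4 still led, at 158 ± 7.97. In fPS 100 CDKN1A came first, at 151 ± 19.7, above CDK4 at 122 ± 8.45 with no overlap. CDK4 there overlapped CCND1 (98.4 ± 20.8), CDKN1B overlapped CCND2, and CCNE2 (3.13 ± 1.38) overlapped CCNE1 (2.54 ± 0.246). The CDK6 level was 5.36 ± 0.536 in fPS 25 and 5.67 ± 0.930 in fPS 100.

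The rest of the pathway was read from 8 lists, whose counts stand against 30.0% of all genes called in fPS 100 against control. E2F target genes of the G1/S step, to which both E cyclin genes also belong in textbooks, fell in fPS 100: 20 of 20 were called lower than control, with a median of −1.27 beside 0.0071 over all genes. CDT1 and CDC6, which license replication origins, were at −1.87 ± 0.14 (adjusted p = 1.03e-05) and −1.31 ± 0.10, and CHAF1A, a histone chaperone of replication, at −1.48 ± 0.10. None of the 20 was called in fPS 25, where their median was −0.13. CCNE2 fell with these genes and CCNE1 rose.

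The cyclins and kinase that follow in S phase and mitosis fell too, 5 of 5, with CCNF, which is also part of a ubiquitin ligase, at −1.26 ± 0.09, CCNB2 at −1.15 ± 0.13 and CCNB1 at −0.85 ± 0.10. None of them was called in fPS 25. Of 9 measured genes of CDK activation, 6 fell, MNAT1 rose and 2 were not called. PKMYT1, a kinase that inhibits CDK1, was at −1.52 ± 0.14, CKS1B, a small CDK-binding protein needed to destroy p27, at −1.03 ± 0.13, and CDC25A, the phosphatase that activates CDK2, at −0.997 ± 0.11. MNAT1, a subunit of the CDK-activating kinase, was higher in fPS 25 also, at 0.48 ± 0.09 (adjusted p = 0.0151).

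Among 12 measured genes of the retinoblastoma and E2F families, 6 fell, 1 rose and 5 were not called. E2F1, an activator, was at −1.51 ± 0.17 (adjusted p = 0.000111), E2F7, a repressor, at −1.16 ± 0.14 and TFDP1, the partner of E2Fs on DNA, at −0.50 ± 0.08. None was called in fPS 25. Among the other CDK inhibitors, 4 of 5 were measured: CDKN2D (p19) and CDKN2C (p18) fell, at −1.51 ± 0.17 and −1.02 ± 0.22, and CDKN2B (p15) rose, at 0.39 ± 0.12 (adjusted p = 0.0267). Of the genes in the retinoblastoma, E2F and other CDK inhibitor lists, only CDKN2D was called in fPS 25, lower at −1.01 ± 0.17 (adjusted p = 0.00919). There p21 and p27 were not called.

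Of 15 genes of ubiquitin ligases and kinases that destroy G1 cyclins, p21 or p27, 2 fell, 2 rose and 11 were not called in fPS 100, a share near that of all genes. DTL, the substrate adaptor that destroys p21 and CDT1 in S phase, was at −1.75 ± 0.18 (adjusted p = 5.12e-05). SKP2, the adaptor that destroys p27, was at −0.64 ± 0.12 (adjusted p = 0.0024). AMBRA1, the adaptor that destroys D cyclins, was at 0.57 ± 0.10 (adjusted p = 0.00199). It was higher in fPS 25 also, at 0.44 ± 0.10 (adjusted p = 0.0366). The scaffold CUL1 was called higher in fPS 25, at 0.38 ± 0.08 (adjusted p = 0.0261). In fPS 100 CUL1 was not called, at 0.22 ± 0.08 (adjusted p = 0.0683). These are RNA levels, and protein turnover was not measured.

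Of 23 transcription factors known to act on the CCND1 or CDKN1A genes, 10 rose, 5 fell and 8 were not called in fPS 100. EGR1 and FOS, immediate early factors of growth and stress signalling, rose by 1.70 ± 0.12 (adjusted p = 1.01e-05) and 2.28 ± 0.19. In fPS 25, 1 rose and 2 fell. EGR1 was at 0.52 ± 0.12 and KLF4, a differentiation factor that acts on CDKN1A, at −0.66 ± 0.09 (adjusted p = 0.00317). SP1 was the other that fell there. KLF4 was lower in fPS 100 also, at −0.51 ± 0.09 (adjusted p = 0.00184). Among 20 transcriptional and other cyclins and CDKs, 3 rose, 2 fell and 15 were not called, again near the share of all genes, with CCNL1 and CCNL2, cyclins of splicing, at 0.69 ± 0.11 and 0.49 ± 0.09 and CDK18 at −0.64 ± 0.10. CDK18 was lower in fPS 25 also, at −0.56 ± 0.10 (adjusted p = 0.00937).

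**Figure D4:**
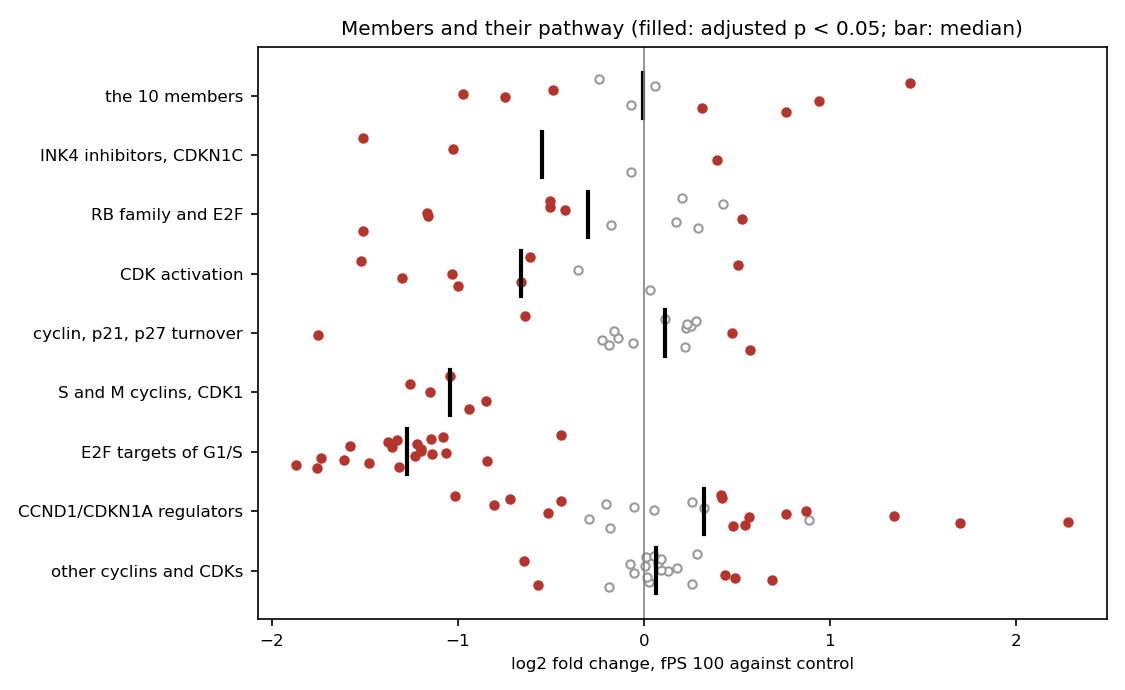
Log2 fold change of fPS 100 against control for the 10 members and for each gene of 8 pathway lists; red filled points have an adjusted p under 0.05, open points do not, and the black bar is the median. The E2F targets and the cyclins of S phase and mitosis lie wholly below 0, while the members lie on both sides.

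For each member called in fPS 100 against control, genes of similar course were sought among 9340 genes at 10 CPM or more. The measure was the root mean square (RMS) difference of centred log2 CPM over the 9 libraries. Symbols that look like names of clones, loci, pseudogenes or RNA genes were passed over, and the smallest remaining differences were kept. This rule also drops known genes whose symbol ends in P or in P and digits, such as TFDP1. Genes passed over may thus lie closer than those named. For CDKN1A the genes kept were PTAFR, the receptor of platelet-activating factor (0.133), CYSTM1 (0.143) and ADGRF4, an adhesion receptor (0.151). For CDK2 they were POLD1, the catalytic subunit of DNA polymerase delta (0.0567), FOXRED1 (0.0600) and DNAJC9 (0.0618). For CDK4 they were HPRT1, of purine salvage (0.0543), PCYT2 (0.0566) and AHCY (0.0583). For CCND1 they were IL4R, the interleukin 4 receptor (0.0755) and ARHGEF40 (0.0796), and for CCND2 ZFYVE27 (0.0601), LIG4 (0.0634) and ZNF513 (0.0671). For CCNE1 they were XAF1 (0.153), PRKCD (0.174) and SLC22A23 (0.179). For CCNE2 they were MAP2K6 (0.0937), MPHOSPH9 (0.136) and CDKN3, a phosphatase that acts on CDK2 (0.148).

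**Figure D5:**
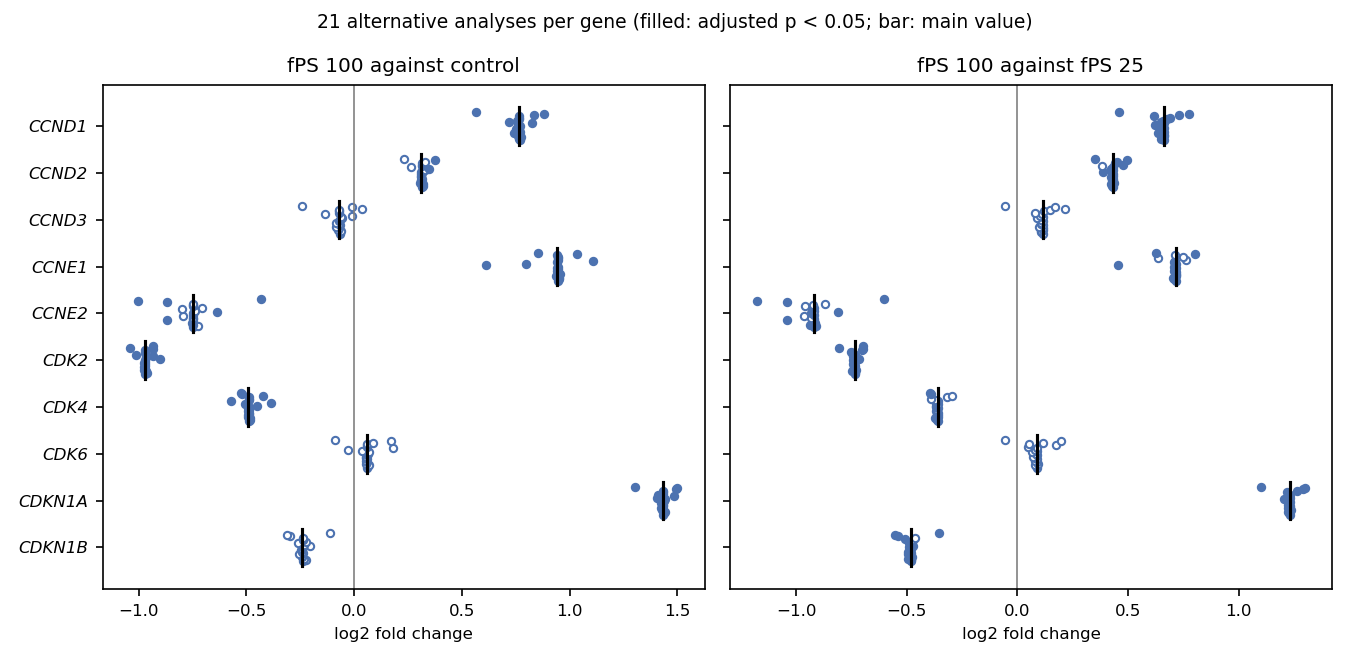
Log2 fold change of each gene under 21 alternative analyses, as points filled where the adjusted p is under 0.05, with the main value as a black bar. CDKN1A, CDK2 and CCND1 are filled throughout in both comparisons, and the leftmost or rightmost points of CCNE2 span −1.003 to −0.43 against control.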

How the data were processed

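The authors deposited raw read counts, whole numbers for each gene and library. They also deposited log2 values for each sample, whose form (1 added, scaled by gene length and depth) was read from the numbers, with the kind of scaling not given. Per the submitters' processing notes, bcl2fastq and the build GRCh38.p14 were used. Per the labels' protocols, RNA was poly(A)-selected and made into NEBNext Ultra II libraries. The sources used here do not give the aligner, counter, annotation or strand setting.

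Counts of 58173 rows were summed to 52402 symbols. Genes were kept with filterByExpr (minimum count 10, total 15), scaled by TMM and fitted, all 9 libraries together, in edgeR 4.0.16 (R 4.3.3) by its quasi-likelihood test, robust setting. P-values are 2-sided with Benjamini-Hochberg adjustment over 14637 genes. SEs are the size of the log2 fold change divided by √F. CPM are TMM-scaled, except the marker sums, which use total counts. At these depths 3 counts are 0.102 to 0.183 CPM. Alternatives used limma 3.58.1 and DESeq2 1.42.0. The procedure was also run on simulated data. These had fewer changed genes than were called here and no library that stands apart, so that run does not test the present calls. Ratios were tested with scipy 1.17.1. Exon overlaps came from GENCODE 29 and gene positions from RefSeq.

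Same-numbered libraries did not deviate together (correlations −0.389 to 0.0317), and none was a copy of another (chi-square per degree of freedom 4.19 to 89.6 within groups).

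The members and lists were chosen with earlier results of these data known. All 10 members are named. From each list the 3 genes with the smallest adjusted p in fPS 100 against control were named, and 2 in fPS 25, among those called. For each called member the 3 genes of most similar course were named, among the symbols not passed over. SP1, SP3 and the genes that overlap members were named after their values were seen. All 168 list entries matched a symbol. A few genes and 1 list that these rules would name are not reported here.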

Additional observations from a re-analysis of the deposited data

How the results depend on the processing

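CDKN1A, CDK2, CCND1, CCNE1 and CDK4 kept their call and direction in fPS 100 against control under all 21 alternatives, as did CDKN1A, CDK2 and CCND1 against fPS 25. Members called numbered 5 to 7 against control. With single libraries left out they numbered 3 to 8 against fPS 25, 0 to 1 in fPS 25 against control and 5 to 8 for any difference among the 3 groups. In fPS 25 against control, 766 genes were called, against 1237 with no filter on low counts, 1232 with DESeq2, 1511 with only the compared groups, 318 with the replicate block and 135 to 1946 with single libraries left out. In fPS 100 against fPS 25, 2012 were called, and 1018 to 2706 with single libraries left out. A fit with a library left out has fewer replicates, and the cause of these shifts was not tested.

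Signs turned only for values that were not called. With single libraries left out, CDK6 ran from −0.0867 to 0.179 (fPS 100 against control), −0.115 to 0.0896 (fPS 25 against control, and 0.0047 with the authors' log2 values) and −0.0573 to 0.199 (fPS 100 against fPS 25). CCND3 ran from −0.24 to 0.0346 and, against fPS 25, from −0.0577 to 0.216. In fPS 25 against control the log2 ratio of CCNE1 to CCNE2 ran from −0.0932 to 0.196 and that of CDKN1A to CDKN1B from −0.0804 to 0.0301. The replicate block ended only the calls of CCND2 and CCNE2 against control and of CCNE2 and CDK4 against fPS 25 in these pairs of groups, and for any difference that of CCNE2 (adjusted p = 0.0617). CCNE1, at 50 to 160 counts, is the member most limited by depth.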
